A study of Mus musculus with 12 samples.

Results

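The genes described are 10 regulators and effectors of the ATF4 stress response, Atf4, Atf3, Atf5, Ddit3, Trib3, Chac1, Sesn2, Ddit4, Ppp1r15a and Nupr1, followed in pools of mouse blastocysts. They were chosen by name with earlier results of these same libraries in view, so their levels and differences are given as descriptions. All 10 were among the 24411 genes in the deposited tables, and all 10 were among the 14743 genes that passed a filter on low counts. Poly(A) RNA came from 12 pools of 10 blastocysts of wild-type ICR mice (genotype ICR_WT), an outbred stock, and each library was made with the SMART-Seq v4 PLUS kit from 1 pool. Oocytes from superovulated females were fertilized in vitro, and the embryos grew in KSOM medium and were collected at 96 h post insemination (hpi). The 6 groups of 2 libraries were HFD siNampt, HFD siNT, HFD C, ND siNampt, ND siNT and ND C, with 1 library of each group in batch 1 and 1 in batch 2. The diets HFD and ND are not spelled out in the labels, while the series title speaks of obese and normal weight mice. The siNampt zygotes received an siRNA against Nampt, the enzyme that makes nicotinamide mononucleotide on the salvage route to NAD, and the siNT zygotes a non-targeting siRNA, both by electroporation at 3 to 6 hpi. C embryos were controls. The labels do not say whether C zygotes were electroporated or what the batch number stands for.

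ATF4 is a bZIP transcription factor whose mRNA is translated more when the initiation factor eIF2 is phosphorylated, which happens when amino acids are short, when unfolded protein builds up in the endoplasmic reticulum, or when mitochondria or haem supply fail. It pairs with C/EBP-family proteins on C/EBP-ATF response elements and raises genes for amino acid synthesis, amino acid uptake and tRNA charging, together with downstream regulators such as Ddit3, Trib3 and Ppp1r15a. Because ATF4 is set largely at translation, the level of Atf4 mRNA is not a measure of the protein.

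Depth was 42473129 to 50503064 expected counts per library. Nampt stood at 8.83 to 12.5 TPM (the length-scaled abundance that RSEM gives) in the 4 siNampt libraries, 10.2 to 15.3 TPM in the 4 siNT libraries and 9.23 to 14.7 TPM in the 4 C libraries, so the ranges overlapped. Within each of the 4 pairs of equal diet and batch the siNampt library was lower than the siNT library. It was also lower than the C library except in ND of batch 1, with 12.45 TPM in siNampt and 12.41 TPM in C. Trophectoderm, inner cell mass and primitive endoderm markers were above 0 in all 12 libraries. Summed over 8 cumulus and granulosa markers the level was at most 0.52 TPM. Of 4 blood cell markers, the haemoglobin gene Hbb-bs was at 0 in all 12 libraries. The haemoglobin gene Hba-a1 was at 0 in 11 and at most 2.63 TPM, and Cd52 ran from 0.16 to 2.13 TPM. These 4 summed to at most 4.7 TPM, in HFD siNampt of batch 1. The sum of 5 sperm markers was 1.67 to 5.29 TPM. In the library HFD siNT of batch 1 the median gap between gene length and effective length, a measure of fragment size, was 186 bases, against 211 to 231 bases in the others.

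Promoter windows from RefSeq (GRCm38.p6, 250 bases before to 50 bases after a gene's start) were matched for all 10 genes, with 11 windows in all because Atf5 had 2. Both strands were searched for the C/EBP-ATF response element TGATGNAA and for the cAMP response element TGACGTCA, which do not overlap in these windows. The C/EBP-ATF element was found for Chac1, Trib3, Nupr1 and Atf3, in 4 of the 11 windows, and in 3.97% of 32851 windows of all genes. The cAMP response element was found for Ppp1r15a alone among the 10, and in 1.79% of all windows. Chac1 encodes an enzyme that degrades glutathione, Trib3 a pseudokinase that binds ATF4 and AKT, Nupr1 a small stress-induced chromatin protein, and Ppp1r15a (GADD34) the subunit that directs protein phosphatase 1 to eIF2. Their 4 windows are shown because Chac1, Trib3 and Nupr1 varied together between pools and Ppp1r15a alone held the other motif. The genes with the element and the genes that varied together overlapped but were not the same set, and a part of the element in the shared variation was not tested. Atf4 and Ddit4 varied with Chac1, Trib3 and Nupr1 but had no match, and Atf3 had a match but followed them less closely. Capitals mark the match, which on the printed strand reads as the reverse complement in the first 3.
Chac1: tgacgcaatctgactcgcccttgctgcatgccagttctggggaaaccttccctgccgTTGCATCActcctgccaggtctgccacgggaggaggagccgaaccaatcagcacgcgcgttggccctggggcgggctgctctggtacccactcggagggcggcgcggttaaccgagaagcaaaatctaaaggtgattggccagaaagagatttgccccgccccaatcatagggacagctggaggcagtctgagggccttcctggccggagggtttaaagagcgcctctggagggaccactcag
Trib3: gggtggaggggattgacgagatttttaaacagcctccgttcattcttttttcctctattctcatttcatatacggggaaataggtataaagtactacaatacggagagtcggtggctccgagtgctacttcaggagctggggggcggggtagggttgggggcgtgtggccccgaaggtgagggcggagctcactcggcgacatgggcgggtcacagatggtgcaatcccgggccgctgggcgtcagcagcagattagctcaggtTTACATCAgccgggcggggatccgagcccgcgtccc
Nupr1: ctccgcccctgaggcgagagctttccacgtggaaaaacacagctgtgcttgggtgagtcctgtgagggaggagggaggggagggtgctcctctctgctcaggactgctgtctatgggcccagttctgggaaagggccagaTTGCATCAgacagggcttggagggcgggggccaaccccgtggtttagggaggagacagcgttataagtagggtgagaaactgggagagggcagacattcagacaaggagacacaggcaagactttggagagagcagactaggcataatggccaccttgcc
Ppp1r15a: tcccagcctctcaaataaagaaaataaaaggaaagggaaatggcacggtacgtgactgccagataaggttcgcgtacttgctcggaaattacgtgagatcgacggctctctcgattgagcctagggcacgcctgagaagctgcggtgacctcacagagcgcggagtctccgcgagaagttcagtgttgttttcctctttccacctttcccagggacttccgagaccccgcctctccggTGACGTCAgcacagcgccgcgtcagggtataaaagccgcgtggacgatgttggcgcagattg
The Chac1 window is chr2:119350992-119351291 on the plus strand, with the match 193 bases before the start. The Trib3 window is chr2:152344011-152344310 on the minus strand, with the match 14 bases after the start. The Nupr1 window is chr7:126625421-126625720 on the minus strand, with the match 110 bases before the start, and the Ppp1r15a window is chr7:45526219-45526518 on the minus strand, with the match 12 bases before the start. The other match, in the Atf3 window at chr1:191183284-191183583 on the minus strand, also began 110 bases before the start. A match describes letters in a window and shows no binding.

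By median TPM over the 12 libraries the order was Atf4 (126 TPM), Nupr1 (82.5 TPM), Ddit3 (41.1 TPM), Trib3 (5.14 TPM), Ppp1r15a (3.73 TPM), Chac1 (3.08 TPM), Ddit4 (1.98 TPM), Sesn2 (1.18 TPM), Atf3 (0.835 TPM) and Atf5 (0.575 TPM). Levels can be compared between genes because TPM is scaled by length. Only the step from Ddit3 to Trib3 held in all 12 libraries. Every other pair of neighbours changed places in at least 2 libraries, as with Nupr1, which was above Ddit3 in 9 of 12. Atf3 and Atf5 rest on few reads, with 11 to 199 and 12 to 66 expected counts per library. Ddit3 (chr10:127290774-127296288) overlaps Mars on the opposite strand, Atf5 (chr7:44812256-44816658) overlaps Nup62 and Il4i1, and Ppp1r15a (chr7:45522916-45526268) overlaps Tulp2, all in the mm10 annotation. No source used here states a strand setting, so the counts of these 3 genes are uncertain to the extent that reads of their partners fell on them.

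Chac1, Nupr1, Trib3 and Ddit4 differed most between pools of the same group, and they did so together with Atf4. In batch 2, Chac1 had 1.91, 12.9 and 3.77 TPM in the HFD siNampt, siNT and C pools, and 0.22, 0.79 and 0.28 TPM in the ND siNampt, siNT and C pools. In batch 1, Chac1 had 2.53, 3.62 and 0.09 TPM in the HFD siNampt, siNT and C pools, and 10.3, 7.97 and 6.92 TPM in the ND siNampt, siNT and C pools. The 3 ND pools of batch 2 and the HFD C pool of batch 1 were the low ones, at under 1 TPM, so that each ND group and HFD C joined a high and a low pool. The highest and the lowest library differed 143-fold, from 827 and 6 expected counts.

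In batch 2, Nupr1 had 31.9, 391 and 279 TPM in the HFD siNampt, siNT and C pools, and 12.5, 64.2 and 18.4 TPM in the ND siNampt, siNT and C pools. In batch 1, Nupr1 had 137, 101 and 43.9 TPM in the HFD siNampt, siNT and C pools, and 281, 178 and 51.1 TPM in the ND siNampt, siNT and C pools. Each of the 3 treatments held a pool of at least 279 TPM and one of at most 64.2 TPM, so the treatment groups overlapped.

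In batch 2, Trib3 had 6.13, 13.7 and 8.42 TPM in the HFD siNampt, siNT and C pools, and 1.31, 2.71 and 1.96 TPM in the ND siNampt, siNT and C pools. In batch 1, Trib3 had 4.68, 5.61 and 0.85 TPM in the HFD siNampt, siNT and C pools, and 15.4, 6.72 and 4.5 TPM in the ND siNampt, siNT and C pools. Within batch 2 all 3 HFD pools were above all 3 ND pools, while in batch 1 the HFD pools included the lowest value of the 12.

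Ddit4 (REDD1) restrains mTORC1 signalling under stress. In batch 2, Ddit4 had 1.49, 4.26 and 3.01 TPM in the HFD siNampt, siNT and C pools, and 1.05, 1.64 and 1.39 TPM in the ND siNampt, siNT and C pools. In batch 1, Ddit4 had 1.89, 2.12 and 0.55 TPM in the HFD siNampt, siNT and C pools, and 6.35, 2.5 and 2.07 TPM in the ND siNampt, siNT and C pools. The ND siNampt pool of batch 1 stood highest and the HFD C pool of batch 1 lowest, and the ranges of all 3 treatments overlapped.

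Atf4 itself moved in the same pools over a narrow range. In batch 2, Atf4 had 114, 143 and 147 TPM in the HFD siNampt, siNT and C pools, and 94.5, 88.7 and 97.8 TPM in the ND siNampt, siNT and C pools. In batch 1, Atf4 had 135, 126 and 89.7 TPM in the HFD siNampt, siNT and C pools, and 170, 132 and 127 TPM in the ND siNampt, siNT and C pools. Its highest library was 1.92-fold above its lowest, and the 4 libraries under 100 TPM were the same 4 in which Chac1 was under 1 TPM.

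Ddit3 encodes CHOP, a bZIP factor that ATF4 induces and that promotes cell death when stress persists. In batch 2, Ddit3 had 65.9, 78.4 and 40.6 TPM in the HFD siNampt, siNT and C pools, and 41.6, 51.6 and 37.0 TPM in the ND siNampt, siNT and C pools. In batch 1, Ddit3 had 30.4, 23.3 and 21.8 TPM in the HFD siNampt, siNT and C pools, and 54.8, 57.5 and 40.6 TPM in the ND siNampt, siNT and C pools. The HFD pools of batch 1 were the 3 lowest of the 12. Atf3, a repressor and activator of the same family, ranged over 0.13 to 2.39 TPM, and Atf5, another bZIP factor translated under eIF2 phosphorylation, over 0.15 to 0.9 TPM.

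**Figure D1:**
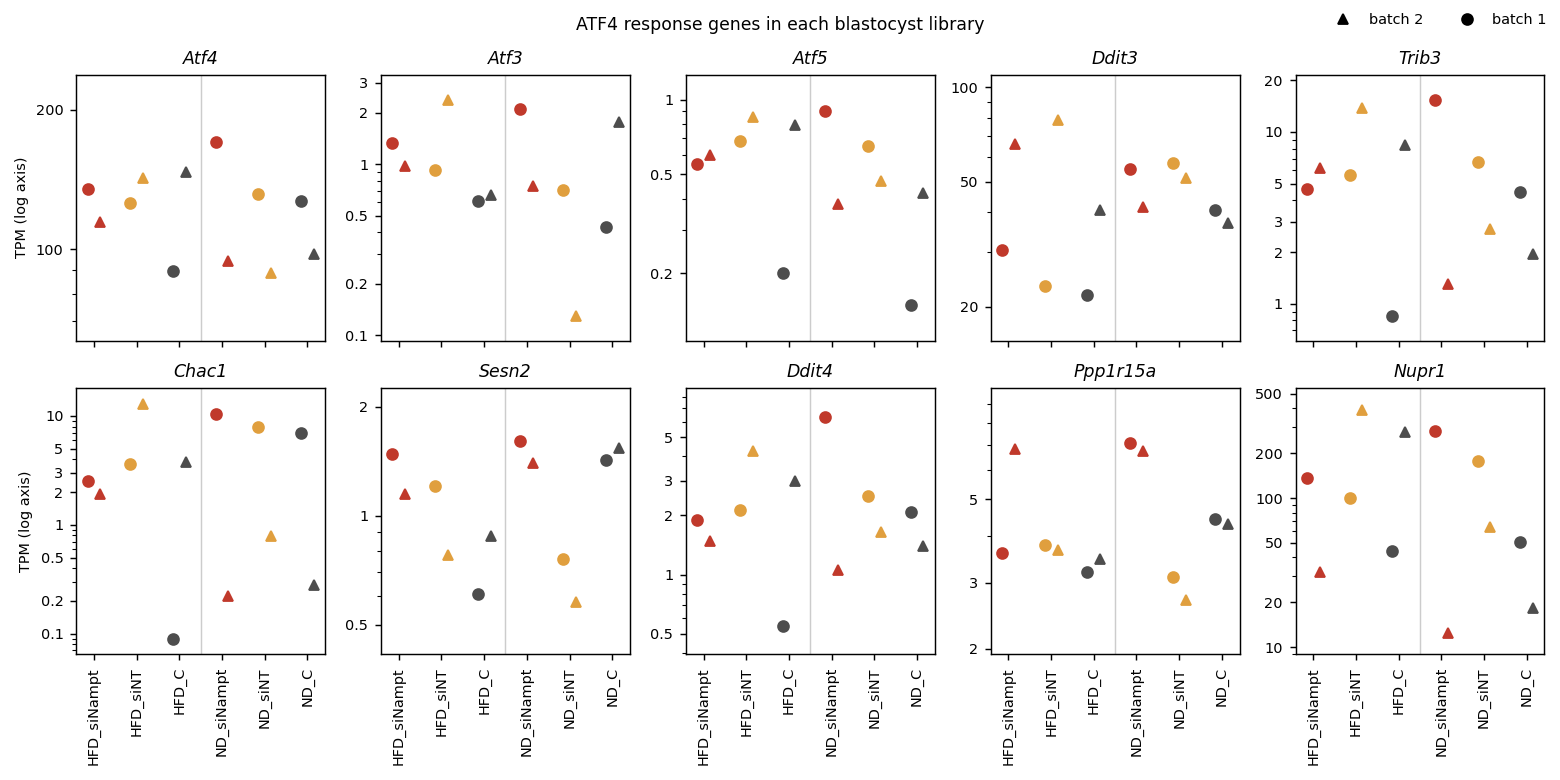
TPM on a log axis in each of the 12 libraries, 1 panel per gene, with groups along the x axis, triangles for batch 2 and circles for batch 1. Chac1 ran between 0.09 and 12.9 TPM and Nupr1 between 12.5 and 391 TPM, with the wide gaps inside groups, whereas Atf4 stayed between 88.7 and 170 TPM.

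The spread between the 2 pools of a group was set beside that of all genes. The replicate standard deviation of log2 CPM (counts scaled to library size with TMM factors, with a prior count of 2) was 2.71 for Chac1, 1.83 for Nupr1, 1.53 for Trib3, 1.09 for Ddit4, 1.07 for Atf3, 0.73 for Atf5, 0.67 for Ddit3, 0.40 for Atf4, 0.26 for Sesn2 and 0.24 for Ppp1r15a, against a median of 0.32 over the 14743 genes tested. Chac1 ranked 14th, Nupr1 90th and Trib3 307th of those genes. Among the 8483 genes that averaged 5 CPM or more they ranked 7th, 13th and 22nd. Sesn2 and Ppp1r15a were less variable, with 61.5% and 64.2% of the genes tested above them, but of the 8483 more abundant genes 40.4% were above Ppp1r15a.

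Most of the 10 genes were lower in batch 2 in each of the 3 ND groups and in HFD siNampt. Most were higher in batch 2 in HFD siNT and HFD C. In ND siNampt and in ND siNT, 0 of the 10 genes were higher in batch 2 than in batch 1, and in ND C 3 were. In HFD C all 10 were higher in batch 2, in HFD siNT 9 were, and in HFD siNampt 3 were. In HFD C, however, Atf3 and Ppp1r15a were nearly equal in both batches, differing by 0.004 and 0.007 in log2 CPM. Over all genes tested the share higher in batch 2 was 48.6% to 51.4% in the 6 groups. For Chac1 the log2 CPM difference, batch 2 minus batch 1, was -0.53 in HFD siNampt, 2.00 in HFD siNT and 4.86 in HFD C, and -5.38 in ND siNampt, -3.30 in ND siNT and -4.55 in ND C. Chac1 was thus lower in batch 2 in all 3 ND groups and higher in batch 2 in 2 of the 3 HFD groups. Read by diet, HFD minus ND was 3.48 within batch 2 and -3.03 within batch 1 for Chac1, 2.57 within batch 2 and -0.71 within batch 1 for Nupr1, and 2.17 within batch 2 and -1.5 within batch 1 for Trib3. For 8 of the 10 genes the sign differed between the batches. No share over all genes was set beside this count, and several of the 10 genes varied together. The difference between the diets in the batch effect was not tested, and with 1 pool per group and batch, a difference between pools and one between diet-by-batch sets cannot be told apart.

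**Figure D2:**
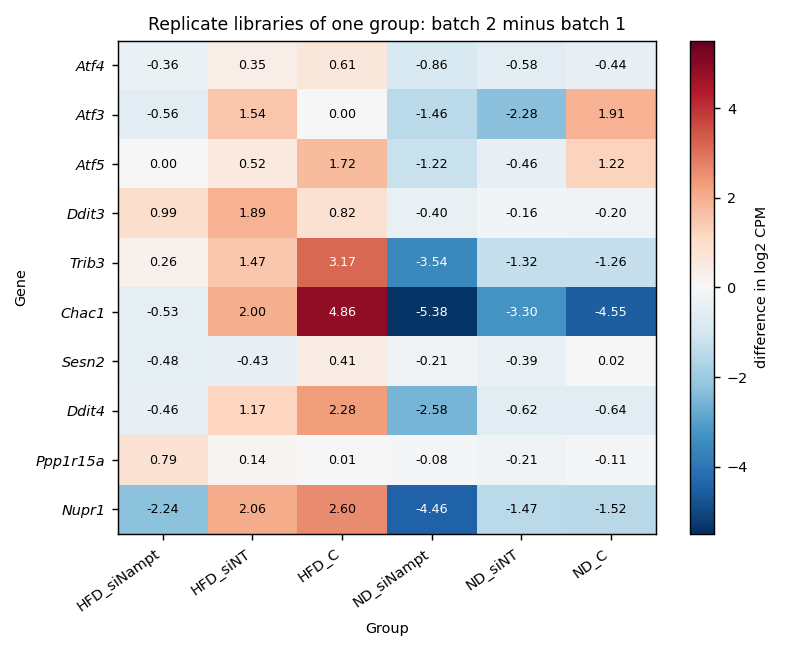
Difference in log2 CPM between the 2 libraries of each group, batch 2 minus batch 1, with genes down the page and groups across, and red for higher in batch 2. Chac1 ran from -5.38 in ND siNampt to 4.86 in HFD C, and the ND siNampt and ND siNT columns hold 0 genes that were higher in batch 2.

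Pearson's r between genes was computed on log2 CPM over the 12 libraries for all 45 pairs, with permutation p-values (100000 resamples, two-sided) adjusted over the 45. The genes were chosen with such results known, and libraries of 1 group are not independent draws of a condition, so these values describe the libraries. Among Atf4, Trib3, Chac1, Ddit4 and Nupr1 the 10 pairs had r of 0.80 to 0.95 with a median of 0.90, Spearman's rho of 0.84 to 0.96, and a largest permutation p of 0.0107 after adjustment. Without the 2 libraries farthest from the median of the first gene of a pair, the 10 values were 0.79 to 0.94. Within batch 2 they were 0.90 to 0.99 and within batch 1 0.66 to 0.99, over 6 libraries each. Atf5 followed Trib3 (r = 0.74, rho = 0.90, adjusted permutation p = 0.0261 for r) and Ddit4 (r = 0.71, rho = 0.79, adjusted permutation p = 0.0319), and without the 2 farthest libraries these r were 0.98 and 0.94. Ddit3 followed less closely, with r of 0.40 with Atf4 and 0.59 with Trib3 and adjusted permutation p of 0.343 and 0.117. In all, 12 of the 45 pairs had an adjusted permutation p under 0.05 by r and 16 by rho.

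Other measures of the libraries were set beside Atf4, Chac1 and Nupr1. The summed TPM of the inner cell mass markers was 76.35 to 100.2 in siNampt, 58.95 to 116.9 in siNT and 83.09 to 111.2 in C. Its r was -0.70 with Nupr1 (rho = -0.69, adjusted permutation p = 0.146), -0.57 with Atf4 (adjusted permutation p = 0.283) and -0.45 with Chac1 (adjusted permutation p = 0.42). For Nupr1 it was -0.87 within batch 2 and -0.52 within batch 1. Nampt TPM had r of 0.70 with Nupr1, 0.58 with Atf4 and 0.51 with Chac1, with adjusted permutation p of 0.146 to 0.316. These 3 values were 0.94 to 0.96 within batch 2, -0.36 to -0.12 within batch 1, and 0.12 to 0.36 without the 2 farthest libraries. The part of inner cell mass content or of Nampt in the levels of these genes was not tested.

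For Sesn2 and Ppp1r15a the 16 pairs with the other 8 genes had r of -0.29 to 0.48, and 0 of the 16 passed by r or by rho. Within batch 2 these 16 values were -0.71 to 0.54 and within batch 1 0.27 to 0.76. With each other they had r of 0.62 and rho of 0.75, with adjusted permutation p of 0.104 and 0.0217, and r was 0.46 without the 2 farthest libraries.

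**Figure D3:**
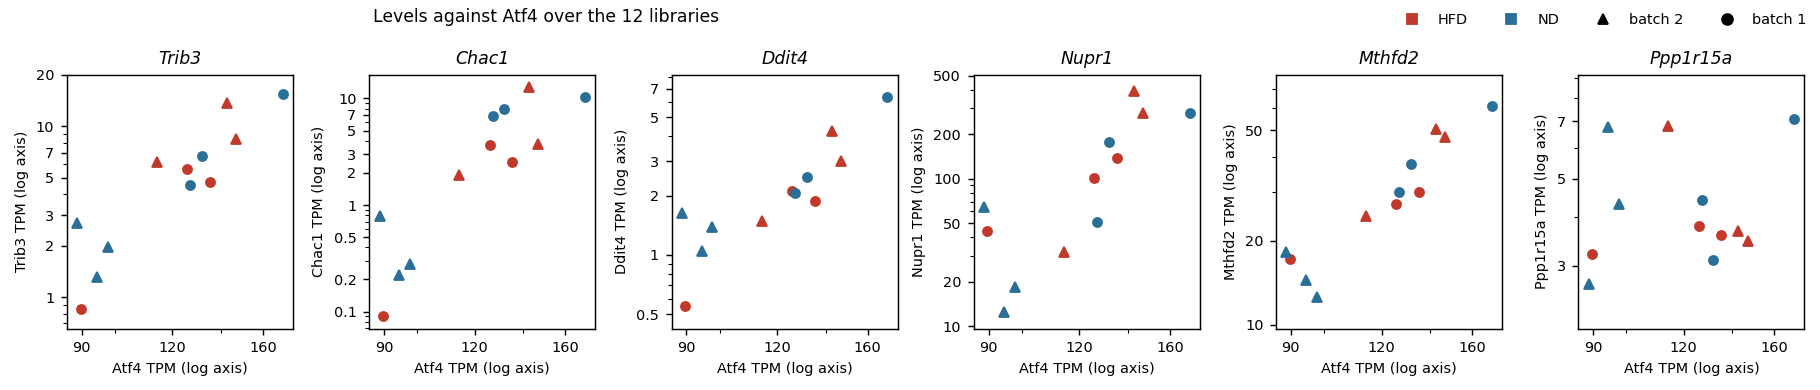
TPM of 6 genes against Atf4 TPM in the 12 libraries, both axes logarithmic, red for HFD, blue for ND, triangles for batch 2 and circles for batch 1. Trib3, Chac1, Ddit4, Nupr1 and Mthfd2 lie low in the 4 libraries where Atf4 is under 100 TPM, and Ppp1r15a runs between 2.7 and 7.08 TPM.

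The genes whose pattern was most like each of the 10 were sought among those 8483 more abundant genes, by r over the 12 libraries after each batch's mean log2 CPM had been subtracted. The closest to Atf4 were Mthfd2, a mitochondrial folate enzyme (r = 0.97), Aldh18a1, which starts proline synthesis (0.96), and Mycn, a transcription factor (0.94). In batch 2, Mthfd2 had 24.6, 50.6 and 47.3 TPM in the HFD siNampt, siNT and C pools, and 14.5, 18.3 and 12.6 TPM in the ND siNampt, siNT and C pools. In batch 1, Mthfd2 had 30.1, 27.1 and 17.3 TPM in the HFD siNampt, siNT and C pools, and 60.9, 37.8 and 29.9 TPM in the ND siNampt, siNT and C pools. The same 4 libraries were lowest for Mthfd2 as for Atf4. Trib3 was most like Jdp2, a bZIP repressor (0.94), and Herpud1, which acts in degradation of endoplasmic reticulum proteins (0.94), and Chac1 was most like Herpud1 (0.93). Nupr1 was most like Aldh18a1 (0.96), the glycolytic enzyme gene Pgk1 (0.95) and Gng2 (0.95), and Ddit4 was most like Stap2 (0.91), Mycn (0.90) and Aldh18a1 (0.90). For Atf5 the third was Pck2, mitochondrial PEP carboxykinase (0.84). Ddit3 was most like Vamp2 (0.90), Atf3 most like Plekhj1 (0.88) and Sesn2 most like Csnk1d (0.93). Ppp1r15a was most like Rrp9 (0.94), the trophectoderm keratin gene Krt18 (0.94) and Dapk3 (0.94).

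Other genes of the pathway, from 12 lists that leave out the 10, were read by their r with Atf4, computed in the same way. The lists overlap, with genes such as Herpud1, Vegfa and Ndrg1 shared between them. All 12 tRNA synthetase genes tested had r above 0.5 and 8 had r above 0.8, from Eprs (0.57) to Iars (0.92), with a median of 0.86. Of 11 amino acid transporter genes 10 had r above 0.5 and 6 above 0.8, led by the arginine and lysine carrier Slc7a1 (0.93), with a median of 0.82, and the exception was Slc43a1 (-0.06). Of 14 genes of amino acid synthesis 10 had r above 0.5 and 7 above 0.8, with a median of 0.81, and Aldh1l2 went the other way (-0.45). Over the 14733 other genes tested the median was 0.00, and 9.25% had r above 0.5 and 0.774% above 0.8. Among 24 other ATF4 and CHOP targets 13 had r above 0.5, with a median of 0.59, from the autophagy gene Map1lc3b (-0.86) to Herpud1 (0.92).

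The chaperones and other genes of the endoplasmic reticulum stress response had a median r of 0.35 with 8 of 26 above 0.5. The median was 0.21 for 25 bZIP partners, 0.17 for 19 HIF1 targets, 0.14 for 13 mitochondrial stress genes, 0.14 for 25 genes of mTORC1 and the sestrin arm, 0.04 for 16 immediate early genes and 0.01 for 19 genes of the eIF2 kinases and eIF2 pathway. In the HIF1 list 4 genes, or 21.1%, had r above 0.8. Among them Vegfa (0.92) and Ndrg1 (0.86) are also in the list of other ATF4 and CHOP targets. The median of the HIF1 list was -0.01 within batch 2 and 0.62 within batch 1. Of 20 Trp53 target genes 18 had r below 0, with a median of -0.43, from the death receptor gene Fas (-0.74) to Mdm2 (0.07). Without the HFD siNT pool of batch 2 and the ND siNampt pool of batch 1, the medians were 0.79 for tRNA synthetases, 0.74 for transporters, 0.72 for amino acid synthesis and -0.45 for Trp53 targets.

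**Figure D4:**
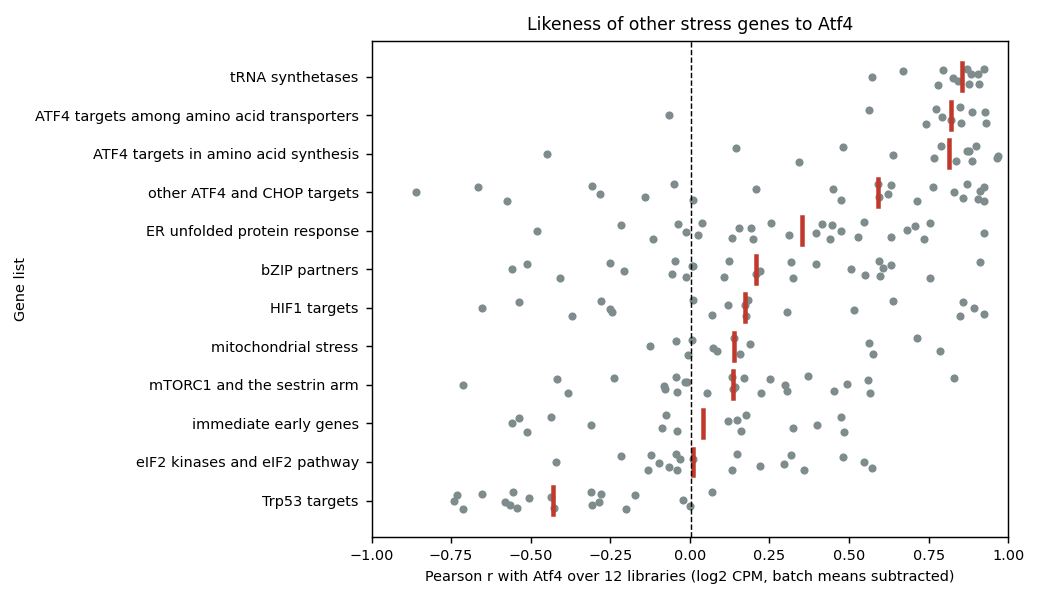
Pearson r with Atf4 over 12 libraries for each gene of 12 lists (grey points) with the median of each list (red bars), on log2 CPM with batch means subtracted, and a dashed line at the median of all genes. tRNA synthetases (0.86), amino acid transporters (0.82) and amino acid synthesis (0.81) stand at the top and Trp53 targets (-0.43) at the bottom.

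The first comparison asked whether the siRNA against Nampt altered these genes relative to the non-targeting siRNA. Over both diets, edgeR called 0 of the 10 genes at an adjusted p under 0.05, as it called 0 (0.0%) of the 14743 genes tested. At an unadjusted p under 0.05 it called 1 of the 10 and 11.2% of all genes, while after adjustment DESeq2 called 1 and limma 0 of all genes, and both called 0 of the 10. By direction, 3 were higher and 7 lower in siNampt, with a median log2 fold change of -0.15 against 0.03 for all genes, but without the HFD siNT pool of batch 2, 7 were higher and 3 lower. The 4 siNampt, 4 siNT and 4 C libraries enter several comparisons each, so the comparisons share libraries.

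Ppp1r15a was the gene with the unadjusted call. In batch 2, Ppp1r15a had 6.82, 3.67 and 3.47 TPM in the HFD siNampt, siNT and C pools, and 6.75, 2.7 and 4.30 TPM in the ND siNampt, siNT and C pools. In batch 1, Ppp1r15a had 3.59, 3.78 and 3.21 TPM in the HFD siNampt, siNT and C pools, and 7.08, 3.11 and 4.42 TPM in the ND siNampt, siNT and C pools. Of the 4 siNampt pools 3 were above all 8 siNT and C pools, and the HFD siNampt pool of batch 1 lay among them. The means were 6.06 ± 1.65 TPM in siNampt, 3.31 ± 0.504 TPM in siNT and 3.85 ± 0.6 TPM in C (SD, n = 4 each). The edgeR log2 fold change of siNampt over siNT was 0.70 (SE 0.20, unadjusted p = 0.0036, adjusted p = 0.396), and leaving out 1 library at a time gave 0.58 to 0.89. Within batch 2 the difference was 0.88 and within batch 1 it was 0.49. Against C the edgeR log2 fold change was 0.62 (SE 0.20, adjusted p = 0.999).

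Ppp1r15a moved with part of the trophectoderm list. The summed TPM of 7 trophectoderm markers was 3387 to 5174 in siNampt, 2744 to 3562 in siNT and 2999 to 3778 in C, and over the 12 libraries its r with Ppp1r15a was 0.94 (rho = 0.81, permutation p = 7e-05, adjusted permutation p = 0.00315 over 45 pairs of a measure and a gene). It was 0.87 without the 2 farthest libraries, 0.91 within batch 2 and 0.98 within batch 1. The abundant keratins carried the sum, with r of 0.94 for Krt18 and 0.92 for Krt8. The other 5 markers ran from -0.15 for Elf5 to 0.47 for Tfap2c, and the sum without both keratins had r of 0.28. In the edgeR fit 6 of the 7 markers were higher in siNampt than in siNT and 0 were called. The defining markers Cdx2, Gata3 and Eomes were above 0 in all 12 libraries. The part that trophectoderm content has in the Ppp1r15a values was not tested, and in pooled embryos fewer cells of a type and less RNA per cell cannot be told apart. With the same sum Atf4 had r of 0.14, Chac1 0.13 and Nupr1 -0.19.

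Sesn2 encodes sestrin 2, a leucine-binding inhibitor of mTORC1. In batch 2, Sesn2 had 1.15, 0.78 and 0.88 TPM in the HFD siNampt, siNT and C pools, and 1.4, 0.58 and 1.54 TPM in the ND siNampt, siNT and C pools. In batch 1, Sesn2 had 1.48, 1.21 and 0.61 TPM in the HFD siNampt, siNT and C pools, and 1.61, 0.76 and 1.43 TPM in the ND siNampt, siNT and C pools. In each of the 4 pairs of the same diet and batch Sesn2 was higher in siNampt than in siNT, and the siNampt pools overlapped the C pools. The edgeR log2 fold change of siNampt over siNT was 0.61 (SE 0.30, unadjusted p = 0.057, adjusted p = 0.462). With the summed trophectoderm markers Sesn2 had r of 0.63 (rho = 0.57, adjusted permutation p = 0.257), which was 0.66 without the 2 farthest libraries, 0.62 within batch 2 and 0.75 within batch 1. The part of trophectoderm content in the Sesn2 values was not tested.

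These log2 differences of Ppp1r15a and Sesn2 exceeded their replicate SD (0.24 and 0.26), whereas the remaining 8 genes had differences between siNampt and siNT smaller than the spread of their replicates. Chac1 had an edgeR log2 fold change of -1.06 (SE 1.13), and leaving out 1 library moved it between -2.37 without the ND siNampt pool of batch 1 and -0.24 without the HFD siNT pool of batch 2. Nupr1 had -0.60 (SE 0.88), which was -2.41 without the ND siNampt pool of batch 1. Within batch 2 the Nupr1 difference was -3.21 and within batch 1 it was 0.44. The other 6 lay between -0.32 for Ddit3 and 0.25 for Atf3.

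Within ND, 9 of the 10 were higher in siNampt, against 3 of the 10 without the ND siNampt pool of batch 1. There edgeR called 0 of the 10 and 0.0% of all genes for siNampt against siNT, and at an unadjusted p under 0.05 it called 2 of the 10, Ppp1r15a and Sesn2, and 8.34% of all genes. For Ppp1r15a both siNampt pools were above both siNT pools, with a log2 fold change of 1.07 (SE 0.27, adjusted p = 0.536 by edgeR), and for Sesn2 likewise, with 0.98 (SE 0.36, adjusted p = 0.552 by edgeR). Atf3 was the third gene without overlap, with 1.58 (SE 0.84, adjusted p = 0.61 by edgeR), which was 0.66 without the ND siNampt pool of batch 1. Of all genes tested, 33.6% had both ND siNampt pools above both ND siNT pools in TPM. Within HFD, 0 of the 10 were called with or without adjustment, against 0.0% and 4.27% of all genes, and 8 of the 10 were lower in siNampt, or 6 without the HFD siNT pool of batch 2. Ppp1r15a had 0.35 (SE 0.27) there, which was -0.13 without the HFD siNampt pool of batch 2. Chac1, Ddit4 and Atf5 were lower in both HFD siNampt pools than in both HFD siNT pools, with edgeR log2 fold changes of -2.05 (SE 1.67), -1.06 (SE 0.79) and -0.58 (SE 0.73), which were -0.74, -0.36 and -0.29 without the HFD siNT pool of batch 2. Of all genes tested, 8.75% had both HFD siNampt pools below both HFD siNT pools in TPM. The difference between the diets in the siNampt response was called for 0 of the 10 with or without adjustment, against 0.0% and 3.06% of all genes, and the point estimate was lower in HFD for 9 of the 10, from -2.24 (SE 1.17) for Atf3 to 0.08 (SE 0.69) for Ddit3. This estimate was higher in HFD for 51.3% of all genes tested. Without the ND siNampt pool of batch 1 the estimate was lower in HFD for 3 of the 10 and higher for 7. It was then 2.44 for Chac1 and 1.77 for Nupr1.

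**Figure D5:**
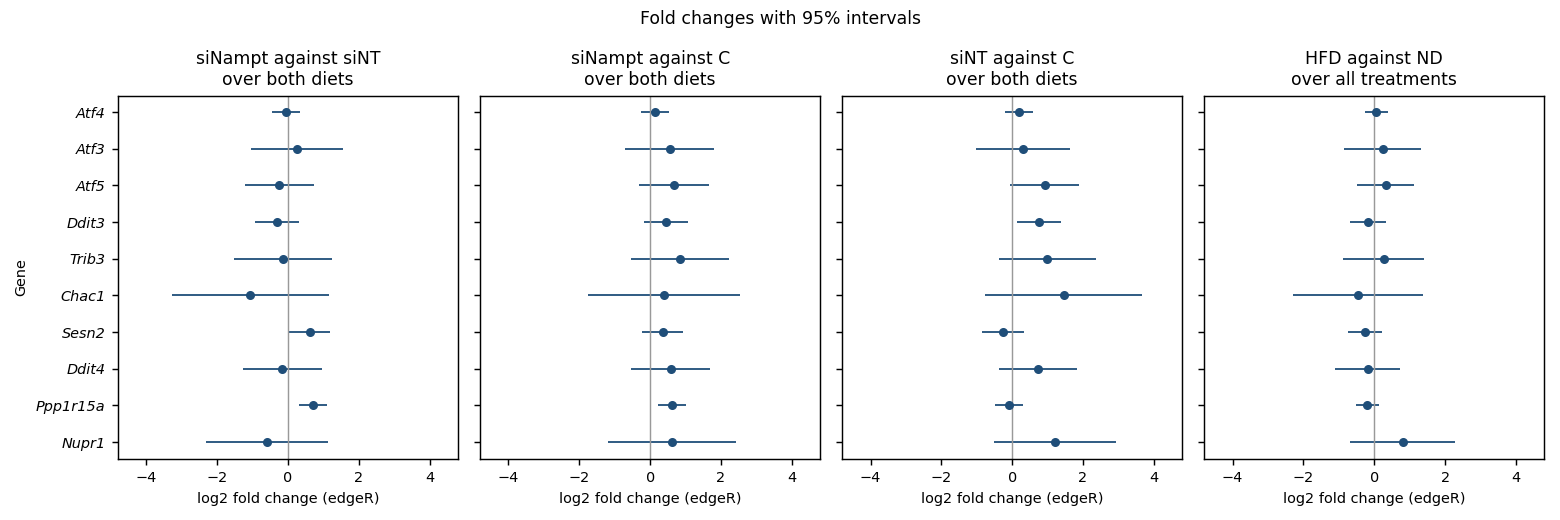
edgeR log2 fold changes (points) of the 10 genes with approximate, unadjusted 95% intervals (bars) in 4 comparisons over all 12 libraries. The bars come from the SE and the normal quantile and are narrower than the quasi-likelihood F test implies. For siNampt against siNT the Sesn2 bar, 0.03 to 1.19, leaves out 0, although the unadjusted p by edgeR was 0.057. Ppp1r15a, at 0.70 against siNT and 0.62 against C, has narrow intervals, and the interval of Chac1 spans -3.28 to 1.16 for siNampt against siNT.

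The second question was how both siRNA groups compared with the C embryos. For siNampt against C over both diets edgeR called 0 of the 10 after adjustment, against 0.0% of all genes, and 1 of the 10, Ppp1r15a, without adjustment, against 3.8%. All 10 point estimates were higher in siNampt, from 0.13 for Atf4 to 0.85 for Trib3, with a median of 0.57 against 0.01 for all genes, of which 51.1% were higher. Without the ND siNampt pool of batch 1, 5 of the 10 were higher and 5 lower, with -1.21 for Chac1 and -0.35 for Trib3. For siNT against C it called 0 of the 10 after adjustment, against 0.0% of all genes, and 1 of the 10, Ddit3, without adjustment, against 4.4%. In this comparison 8 were higher in siNT, with a median of 0.74 against -0.01 for all genes, of which 47.8% were higher. Ddit3 averaged 52.7 ± 22.7 TPM in siNT and 35 ± 8.95 TPM in C (SD, n = 4 each), with overlapping ranges and an edgeR log2 fold change of 0.75 (SE 0.32, unadjusted p = 0.032, adjusted p = 0.984), which was 0.34 without the HFD siNT pool of batch 2. Chac1 had 1.46 (SE 1.13) and Nupr1 1.21 (SE 0.87), which were 0.60 and 0.58 without the HFD siNT pool of batch 2, and leaving out other libraries raised them to at most 2.44 and 2.37. The sign of siNT against C was the same within both batches for 8 of the 10 genes, and that of siNampt against C for 3 of the 10. These counts, too, have no share over all genes beside them.

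For diet, HFD against ND over all treatments, edgeR called 0 of the 10 with or without adjustment, against 0.0% and 3.22% of all genes. By direction 5 were higher and 5 lower in HFD, but 2 were higher and 8 lower without the HFD siNT or the HFD C pool of batch 2. Without the ND siNampt pool of batch 1, 7 were higher and 3 lower. The estimates lay between -0.46 (SE 0.93) for Chac1 and 0.81 (SE 0.76) for Nupr1, and DESeq2 and limma called 0 of the 10. The Chac1 estimate was 0.54 without the ND siNampt pool of batch 1, and the Nupr1 estimate 0.16 without the HFD C pool of batch 2. In the C embryos alone edgeR called 0 of the 10 after adjustment, against 0.0% of all genes, and 1 of the 10, Sesn2, without adjustment, against 2.81%. Sesn2 had 0.88 TPM in batch 2 and 0.61 TPM in batch 1 in HFD C, against 1.54 TPM in batch 2 and 1.43 TPM in batch 1 in ND C, so the groups did not overlap, with an edgeR log2 fold change of -0.96 (SE 0.36, adjusted p = 1.0). Ppp1r15a was also lower in both HFD C pools, at -0.35 (SE 0.27), and 16.2% of all genes tested had both HFD C pools below both ND C pools in TPM.

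For batch 2 against batch 1 with the 6 groups in the model, edgeR called 0 of the 10, although it called 58 of all genes, or 0.393%, of which 40 were higher and 18 lower in batch 2. Without adjustment it called 0 of the 10 and 9.43% of all genes. Chac1 had -1.46 (SE 1.3), Nupr1 -0.93 (SE 0.83) and Ddit3 0.48 (SE 0.26), and 7 of the 10 were lower in batch 2. DESeq2 called 300 of all genes and 0 of the 10.

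None of the 12 lists of other pathway genes held a gene called by edgeR in siNampt against siNT, HFD against ND or batch 2 against batch 1. Of 14 genes of amino acid synthesis 4 were higher and 10 lower in siNampt than in siNT, with Cth (-0.54, SE 0.19) and Phgdh (0.45, SE 0.19) among those of smallest p. Of 11 transporter genes 8 were higher and 3 lower, with Slc7a3 (-1.15, SE 0.61) and Slc38a2 (-0.54, SE 0.30) of smallest p, and of 12 tRNA synthetase genes 9 were higher and 3 lower. Of 24 other ATF4 and CHOP targets 12 were higher and 12 lower, with the autophagy receptor gene Sqstm1 at 0.62 (SE 0.20). The eIF2 pathway had 9 higher and 10 lower, with Eif2s1, the eIF2 subunit that is phosphorylated, at -0.32 (SE 0.12) and the eIF2B subunits Eif2b5 and Eif2b4 both at 0.35 (SE 0.13). Of 20 Trp53 targets 16 were higher in siNampt, with a median of 0.28 against 0.03 for all genes and 7 at an unadjusted p under 0.05, against 11.2% of all genes. Against C, 8 of the 20 were higher in siNampt, with a median of -0.07, and 2 of the 20 in siNT, with a median of -0.22. In batch 2 against batch 1, 11 of the 12 tRNA synthetase genes and 9 of the 11 transporter genes were lower in batch 2, while 18 of the 20 Trp53 targets were higher, led by Perp (0.52, SE 0.12).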

How the data were processed

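Poly(A) RNA of 12 pools of blastocysts was sequenced, 1 deposited table per library. The submitters' processing notes name STAR 2.7.10, RSEM 1.2.28 and the build mm10, with no settings. Per the file headers the deposited values are the expected counts of RSEM, TPM and FPKM, beside gene lengths and effective lengths in bases, which served to check fragment size. The deposited FPKM values were not used. No source used here says whether replicates came from separate matings, and p-values measure the spread between these pools.

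The 10 genes, the lists, the motifs and the tests were chosen with earlier results of these data known. Expected counts were rounded to whole numbers (all 120 values of the 10 genes were whole already). Genes were filtered with filterByExpr (minimum count 10, 6 groups), scaled by TMM and tested two-sided with edgeR 4.0.16 quasi-likelihood fits in R 4.3.3 over all 12 libraries, adjusting by Benjamini-Hochberg across 14743 genes, with 0.05 as threshold. Diet and treatment were additive for comparisons over both diets, 6 group means served comparisons within a diet, in C and the interaction, and batch was added to these for batch 2 against batch 1. SEs came from the quasi-likelihood F statistic. Correlations used log2 CPM and permutation tests in Python 3.11.15 with SciPy 1.17.1. Tested on simulated data, the fit recovered 46% of 2-fold and 79% of 4-fold changes for siNampt against siNT over both diets, with 9 false calls among 14743 genes. The changed genes were drawn at random from all genes tested, and no other group or batch differences were simulated. The median replicate SD was 0.32, against 2.71 for Chac1, 1.83 for Nupr1 and 1.53 for Trib3. These rates therefore do not hold for genes as variable as those.

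Named genes were the 10, the 3 most like each by r (not all are given), and those of smallest p or of extreme r in a list. Vegfa, Ndrg1, Pck2, Krt8 and the other trophectoderm markers were singled out after their values were seen. The batch label equals the replicate number and pairs the libraries across groups. Over 15 pairs of groups the replicate differences correlated with r of -0.06 to 0.22, 6 of them above 0.1. Other settings were RLE size factors, DESeq2 1.42.0, no filter, a filter of 5 CPM in 2 libraries, limma 3.58.1 on log2 TPM with a pseudocount of 1 or 0.1, the replicate block, the libraries compared alone, each library left out, and, added after seeing the data, a replicate block within each diet. Coordinates are from the mm10 annotation given and promoter sequences from RefSeq GRCm38.p6, the same build.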

Additional observations from a re-analysis of the deposited data

Results flagged for a closer look

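Among 50 sets of 4 or 6 libraries of one treatment or diet, 6 held a library far from the others in TPM by Dixon's 95% criterion. The criterion flags about 1 set in 20 when values are normal and sets independent. These sets share libraries, and some of the genes varied together, so the count of 6 cannot be set against that rate. Chac1 at 12.9 TPM in the HFD siNT pool of batch 2 stood above the next HFD library at 3.77 TPM. Ddit4 at 6.35 TPM in the ND siNampt pool of batch 1 stood above the other siNampt libraries, the next at 1.89 TPM, and above the other ND libraries, the next at 2.5 TPM. Nupr1 at 279 TPM in the HFD C pool of batch 2 stood above the other C libraries, the next at 51.1 TPM. Ppp1r15a at 3.59 TPM in the HFD siNampt pool of batch 1 stood below the other siNampt libraries, the next at 6.75 TPM. Ppp1r15a at 6.82 TPM in the HFD siNampt pool of batch 2 stood above the other HFD libraries, the next at 3.78 TPM.

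In log2 CPM, the pools of batch 2 were above those of batch 1 for 3 genes in all 3 HFD groups and below them in all 3 ND groups. The mean log2 CPM difference, batch 2 minus batch 1, was larger in HFD than in ND by 3.67 for Trib3, 1.48 for Ddit3 and 0.45 for Ppp1r15a. This difference between the diets was not tested. No share over all genes was set beside the count of 3 genes. For Ppp1r15a the difference was 0.79 in HFD siNampt, 0.14 in HFD siNT and 0.01 in HFD C. It was -0.08 in ND siNampt, -0.21 in ND siNT and -0.11 in ND C. In TPM the HFD siNT pools had the other order for Ppp1r15a, with 3.67 in batch 2 and 3.78 in batch 1.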

How the results depend on the processing

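The number of the 10 genes called was 0 in each of the 9 comparisons under DESeq2, RLE size factors, both limma settings, each library left out, and the stricter filter, which kept 7 of the 10 (not Atf3, Atf5 and Sesn2). It was 0 with the libraries compared alone, run for 3 comparisons of treatments over both diets. It was 0 in 8 comparisons with the replicate block and with the block within each diet (added after the data were seen), both left out for batch 2 against batch 1, whose model holds batch. With no filter on low counts the calls were 2 for siNampt against siNT over both diets (Chac1 and Nupr1), 1 for siNampt against C (Trib3), 4 for siNT against C (Chac1, Ddit3, Nupr1 and Trib3), 1 for HFD against ND (Nupr1), 2 for siNampt against siNT in HFD and 2 for the interaction (Chac1 and Nupr1 in both), 1 for HFD against ND in C (Nupr1) and 3 for batch 2 against batch 1 (Chac1, Ddit3 and Nupr1), and 0 for siNampt against siNT in ND. The prior degrees of freedom were estimated at 6.31 with the filter and as infinite without it. An infinite prior sets each gene's quasi-likelihood dispersion to the trend at its abundance, not to its own estimate. Over all genes the calls without a filter were 40 to 119 in those comparisons other than batch, against 0 with it. For batch they were 58 with the filter, 454 without, 300 by DESeq2 and 24 and 14 by limma. Of 1783 log2 fold changes of the 10 genes under alternatives, 1746 moved by less than the replicate SD, 37 by more, and 109 had the other sign. Counts of 6 to 827 for Chac1 and 11 to 199 for Atf3 limit low libraries.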
